A study of Mus musculus with 22 samples.

Results

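The surrogate light chain genes Vpreb1, Vpreb2, Vpreb3 and Igll1 were followed through 22 mouse lymphoma libraries. They are 4 of the 52636 gene rows of the count table, and were chosen by name after the Ensembl identifiers had been matched to mouse symbols, with earlier results of these data known. Vpreb1 and Igll1 encode the noncovalent surrogate light chain that pairs with the immunoglobulin mu heavy chain, together with the Cd79a and Cd79b signalling chains, as the pre-B cell receptor of large pre-B cells. Vpreb2 encodes a near copy of the Vpreb1 protein. Vpreb3 encodes a related protein that binds the heavy chain inside the cell and is also expressed in some later B cells. In normal bone marrow the surrogate light chain genes are on in pro-B and large pre-B cells and are shut off afterwards.

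All tumours came from mice of a mixed 129/C57Bl6 background with floxed p53 alleles (p53fl/fl) and Mb1Cretg/+, a Cre recombinase expressed from the Cd79a locus in the B lineage. MCL-like primary tumours (4 mice) and Ccnd2 non-MCL primary tumours (3 mice) also carried the cyclin D2 transgene R26-Ccnd2tg/tg, and were told apart by the immunophenotype that the submitters gave, where MCL stands for mantle cell lymphoma. The p53-only primary tumours (7 libraries from 6 mice, replicates 2 and 5 sharing a mouse) had no transgene and were labelled non-MCL. Transplants had been grown in NSG hosts, which lack mature T, B and NK cells: 6 MCL-like libraries from the tumours of 4 mice, and 2 Ccnd2 non-MCL libraries from 1 mouse. No treatment was applied and the labels used here give no ages for the mice. The titles of the 6 MCL-like transplants read non-MCL, and these libraries were grouped by their immunophenotype field.

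Library totals ran from 2693399 to 8146613 counts, so that 1 count stood for 0.123 to 0.371 CPM, counts scaled to a common library total. Values are CPM of the library total unless TMM scaling is named. The libraries were made from the 3′ ends of transcripts and carry no length term, so levels are compared between libraries and not between genes. Summed over 7 B lineage markers, every library had 1274 to 6133 CPM, the p53-only thymoma (replicate 6) included at 2477 CPM. That thymoma had 71.6 CPM over 10 T cell markers, near the lowest p53-only library at 65.2 CPM, and 5.59 CPM over 6 markers of thymic epithelium. All 4 p53-only libraries whose names start with oTP came from sites not labelled spleen, and 3 of them were high in surrogate light chains. The exception, replicate 5, had 5.45 CPM of Vpreb1, against 3.47 CPM in the spleen library of the same mouse (replicate 2). The labels do not explain the prefix. In the p53-only group name prefix and site cannot be told apart, and their part in the level was not tested. Ccnd2 non-MCL primary 3, a spleen tumour, is also named oTP, and is left out of every comparison without oTP samples.

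On GRCm38, Igll1 (ENSMUSG00000075370, 3 exons) spans chromosome 16 from 16860671 to 16863985 on the minus strand. Vpreb1 (ENSMUSG00000059305) lies 4417 bases further on, from 16868403 to 16870843, on the same strand. Vpreb2 (ENSMUSG00000059280) lies on the plus strand of the same chromosome, from 17980428 to 17981273, about 1110 kb away. Vpreb3 (ENSMUSG00000000903) is on chromosome 10, from 75943057 to 75949657, on the plus strand. The bases before the RefSeq transcription start (GRCm38.p6) of Vpreb1, Igll1 and Vpreb3 are printed because members were high in the same libraries. For Vpreb2 only bases before the gene start at 17980428 were kept, so its window is shorter. The Vpreb1 and Vpreb3 windows lie inside the gene spans given above, and the Igll1 and Vpreb2 windows lie outside them. Capitals mark E-boxes, CANNTG, the motif bound by E proteins such as the product of Tcf3. The windows are chr16:16869256-16869505 on the minus strand for Vpreb1, chr16:17980315-17980427 on the plus strand for Vpreb2, chr16:16863986-16864235 on the minus strand for Igll1, and chr10:75948050-75948299 on the plus strand for Vpreb3.
Vpreb1: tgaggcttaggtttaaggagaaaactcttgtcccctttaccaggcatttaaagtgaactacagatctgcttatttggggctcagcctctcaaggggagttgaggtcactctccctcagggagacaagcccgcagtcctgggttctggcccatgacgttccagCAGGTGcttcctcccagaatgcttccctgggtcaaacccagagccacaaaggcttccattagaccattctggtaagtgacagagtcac
Vpreb2: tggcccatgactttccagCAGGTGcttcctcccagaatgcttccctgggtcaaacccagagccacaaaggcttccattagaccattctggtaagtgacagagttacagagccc
Igll1: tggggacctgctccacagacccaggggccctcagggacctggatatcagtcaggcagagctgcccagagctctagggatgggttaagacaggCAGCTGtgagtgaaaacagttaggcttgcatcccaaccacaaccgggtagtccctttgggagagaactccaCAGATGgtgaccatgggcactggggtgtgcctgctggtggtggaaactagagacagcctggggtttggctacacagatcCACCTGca
Vpreb3: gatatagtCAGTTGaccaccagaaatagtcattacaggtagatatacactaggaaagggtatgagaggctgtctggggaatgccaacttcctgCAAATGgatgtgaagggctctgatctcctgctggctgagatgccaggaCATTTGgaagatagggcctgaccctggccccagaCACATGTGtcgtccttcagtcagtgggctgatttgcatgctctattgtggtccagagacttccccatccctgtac

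The windows held 1 E-box for Vpreb1, 1 for Vpreb2, 3 for Igll1 and 5 for Vpreb3, of which a pair overlaps. An E-box occurred in 66.2% of 32851 RefSeq promoter windows of 250 bases, and in 38.4% of windows of the 113 bases available for Vpreb2, so its presence sets these genes apart little. The core of the EBF motif, CCCNNGGG, was found once before Igll1 and not in the windows of the other members, against 11.8% of all 250-base windows. The Ikaros core TGGGAA, searched like the others on both strands, was in none of the 4 windows, against 21.6% of all. Of the 113 bases before Vpreb2, 111 were identical to the Vpreb1 window at its best ungapped placement. The transcripts are as alike: 288 of the last 300 bases of Vpreb1-201 and Vpreb2-201, and 97 of the last 100, are the same. Reads from these 3′ ends can be exchanged between the genes, so the Vpreb2 counts are uncertain, and adding them to Vpreb1 moved no call.

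Vpreb1, the V-like chain of the surrogate light chain, was high in every Ccnd2 non-MCL primary and in 3 of 7 p53-only libraries, and lower in all MCL-like primaries. Ccnd2 non-MCL primaries 1, 2 and 3 had 5231, 5691 and 2424 CPM. The p53-only libraries ran from 2.02 CPM through a median of 5.45 to 5132 CPM, with replicates 4, 7 and 6 at 5132, 2879 and 458 CPM and the other 4 at 2.02 to 5.45 CPM. MCL-like primaries 1, 2 and 3 had 0.892, 1.69 and 1.90 CPM, and primary 4 had 224 CPM. Each Ccnd2 non-MCL primary thus lay above each MCL-like primary, while the p53-only group ran from near the lowest MCL-like tumours to near the highest Ccnd2 non-MCL ones. As means over mice, Vpreb1 stood at 4448 ± 1768 CPM (SD, n = 3), 1413 ± 2138 CPM (n = 6) and 57.1 ± 111 CPM (n = 4) in the Ccnd2 non-MCL, p53-only and MCL-like primaries. In whole tumours, fewer cells with the transcript and less transcript per cell cannot be told apart.

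**Figure D1:**
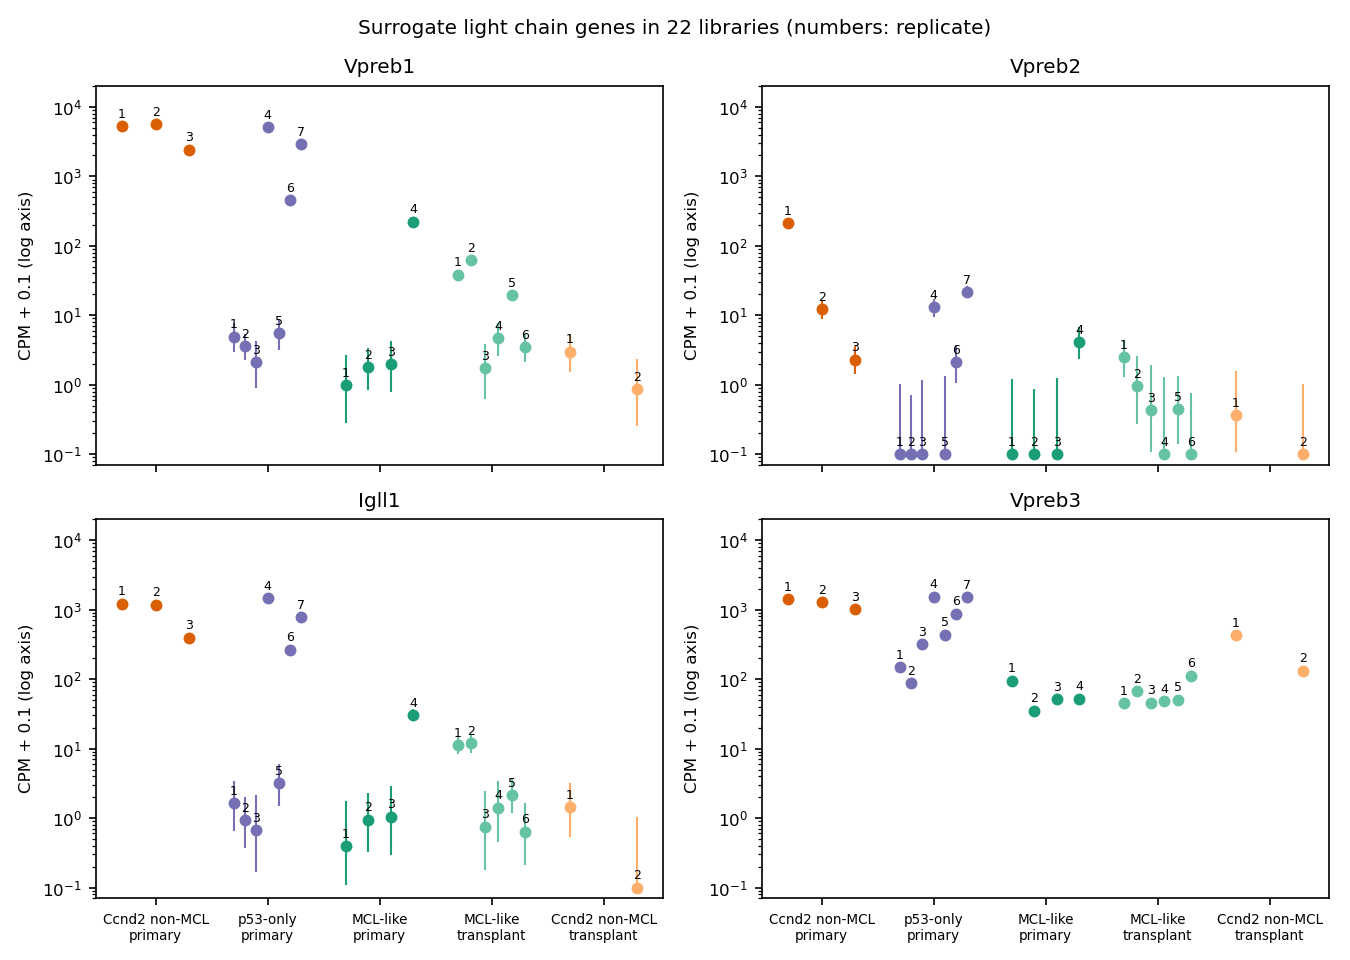
CPM plus 0.1 of each gene (log axis) in every library, by group, with 95% exact binomial intervals and replicate numbers beside the points. Vpreb1 and Igll1 are split within the p53-only group, where replicates 4, 6 and 7 lie at 458 to 5132 CPM of Vpreb1 and the others at 2.02 to 5.45 CPM, whereas Vpreb3 is present in all 22 libraries.

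Igll1 encodes lambda 5, the constant-like chain that holds Vpreb1 in the receptor, and it followed the same split. Ccnd2 non-MCL primaries 1, 2 and 3 had 1220, 1179 and 394 CPM of Igll1. In p53-only replicates 4, 7 and 6 it was 1452, 788 and 265 CPM, against 0.576 to 3.06 CPM in the other 4 libraries. MCL-like primaries 1, 2 and 3 had 0.297, 0.844 and 0.95 CPM, each of them 1 to 4 counts, and primary 4 had 30.4 CPM. The order of the groups is that of Vpreb1, with means of 931 ± 465.6, 418 ± 592 and 8.11 ± 14.8 CPM over the Ccnd2 non-MCL, p53-only and MCL-like mice, and the same MCL-like mouse stood apart.

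Vpreb2 was low in nearly every library and at 0 counts in 10 of 22, where 3 counts would have been 0.495 to 1.02 CPM. Ccnd2 non-MCL primary 1 stood alone with 212 CPM, and replicates 2 and 3 of that group had 12.3 and 2.21 CPM. The p53-only replicates 7, 4 and 6 had 21.6, 12.9 and 2 CPM and the other 4 had 0 counts. Among MCL-like primaries, replicate 4 had 4.03 CPM and the other 3 had 0 counts. Vpreb2 was thus seen in primaries only where Vpreb1 was at 224 CPM or above, and it took a small part of the counts of the pair.

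That part was not the same in all tumours. Of the Vpreb1 and Vpreb2 counts together, Vpreb2 made up 3.90% (exact 95% interval 3.59 to 4.23%, counting error only) in Ccnd2 non-MCL primary 1. In Ccnd2 non-MCL primaries 2 and 3 it made up 0.215% (0.155 to 0.292%) and 0.0911% (0.0540 to 0.144%). In p53-only replicates 4, 6 and 7 the share was 0.251%, 0.433% and 0.745%. MCL-like primary 4 had 1.77% (0.993 to 2.90%) and MCL-like transplant 1 had 5.91% (2.99 to 10.3%), on 848 and 186 counts. The interval of Ccnd2 non-MCL primary 1 lies above those of the other 5 libraries with over 400 CPM of Vpreb1, a level picked after the values were seen. Whether tumours differ in reads exchanged between the genes or in Vpreb2 transcripts was not tested.

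Vpreb3 was present in all 22 libraries, at 35.2 CPM or more. Ccnd2 non-MCL primaries 1, 2 and 3 had 1405, 1274 and 1015 CPM. The p53-only libraries ran from 87.5 CPM through a median of 437 to 1543 CPM, with the highest values in replicates 4, 7 and 6 at 1543, 1519 and 873 CPM. MCL-like primaries 1, 2, 3 and 4 had 95.5, 35.2, 51.3 and 52.4 CPM. No MCL-like library reached a Ccnd2 non-MCL one. The lowest p53-only library, replicate 2 at 87.5 CPM, was below MCL-like primary 1, but its mouse gave a second library (replicate 5) at 437 CPM, and no p53-only mouse overlapped the MCL-like mice once those libraries were summed. The means over mice were 1231 ± 198, 767 ± 645 and 58.6 ± 25.8 CPM in Ccnd2 non-MCL, p53-only and MCL-like primaries.

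Read library by library, Vpreb1 and Igll1 agreed closely. Above 100 CPM there were 7 libraries for Vpreb1 and 6 for Igll1, and all 6 were among the 7. The remaining library was MCL-like primary 4, with 224 CPM of Vpreb1 and 30.4 CPM of Igll1. A shared cut does not allow for the lower counts of Igll1. Per count of Vpreb1 they were 0.136 in that library and 0.163 in Ccnd2 non-MCL primary 3. The 6 libraries with over 400 CPM of Vpreb1 had 265 to 1452 CPM of Igll1, 873 to 1543 CPM of Vpreb3 and 2 to 212 CPM of Vpreb2. In the remaining 16 libraries Vpreb1 was at 0.762 to 224 CPM, Igll1 at 0 to 30.4 CPM, Vpreb3 at 35.2 to 437 CPM and Vpreb2 at 0 to 4.03 CPM. Vpreb3 and Igll1 therefore divided the libraries at the same place as Vpreb1, whereas Vpreb2 did not separate them.

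**Figure D2:**
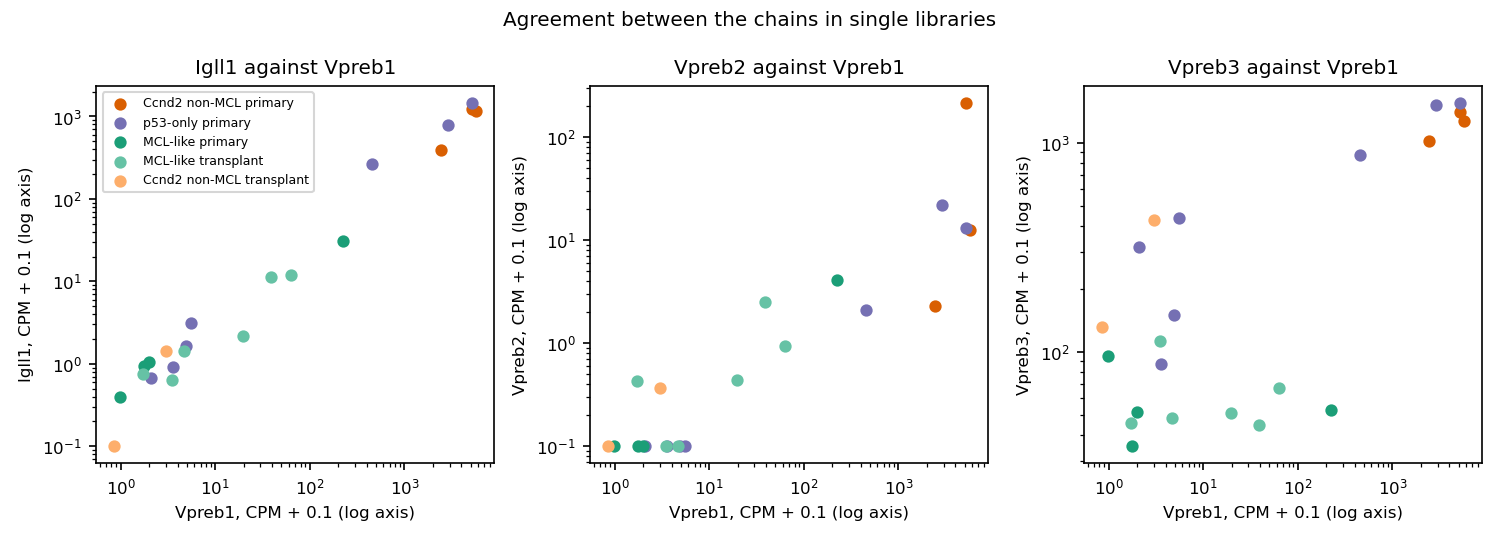
Igll1, Vpreb2 and Vpreb3 against Vpreb1 in each of 22 libraries, both as CPM plus 0.1 on log axes, coloured by group. Igll1 is at 265 to 1452 CPM in the 6 libraries with over 400 CPM of Vpreb1. In the 16 libraries with less than 400 CPM of Vpreb1, Igll1 is at 0 to 30.4 CPM and Vpreb3 at 35.2 to 437 CPM.

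Within the 6 high libraries, the counts of Igll1 per count of Vpreb1 were 0.233, 0.207 and 0.163 in Ccnd2 non-MCL primaries 1, 2 and 3, and 0.283, 0.274 and 0.579 in p53-only replicates 4, 7 and 6. The thymoma, replicate 6, had the highest ratio: Igll1 made up 36.7% of its Igll1 and Vpreb1 counts (exact interval 35.1 to 38.3%), against 14.0 to 22% in the other 5. The same library had 1.90 counts of Vpreb3 per count of Vpreb1, against 0.224 to 0.528 in the others. It thus had less Vpreb1 than the other high libraries relative to both Igll1 and Vpreb3. In MCL-like primary 4 the ratio of Igll1 to Vpreb1 was 0.136, with Igll1 at 11.9% of the pair's counts (9.95 to 14.2%), an interval that overlaps that of Ccnd2 non-MCL primary 3 (13.5 to 14.4%) and lies below those of the other 5.

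Over all primary mice the levels fell into separate sets, so no correlation between members was tested over all of them. Among the 6 mice with over 400 CPM of Vpreb1, log2(CPM + 1) of Vpreb1 and Igll1 correlated at Pearson r = 0.91 (exact permutation p = 0.0167, n = 6, two-sided; Benjamini-Hochberg adjusted 0.1 over 6 pairs) and Spearman rho = 0.77 (exact p = 0.103). Without the 2 mice farthest from the median of Vpreb1, r was 0.89. Vpreb3 and Igll1 correlated at r = 0.90 (exact permutation p = 0.0417, adjusted 0.103), with rho = 0.83 (exact p = 0.0583), but r was -0.13 without the 2 farthest mice, so that relation rested on them. No pair passed the adjustment.

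MCL-like and Ccnd2 non-MCL primaries share their genotype label, so their comparison asks which genes go with the immunophenotype at 1 genotype. Vpreb3 was the member that passed the test: it fell by 4.24 in log2 units (SE 0.75, adjusted p = 0.0470, edgeR's quasi-likelihood test with Benjamini-Hochberg adjustment over 12967 genes), at 63.1 ± 34 against 1192 ± 242 TMM-scaled CPM. It is 1 of 4 members called lower, where 0.247% of all genes tested were called lower and 0.308% were called in either direction. That call was near the threshold: it was kept when Ccnd2 non-MCL replicate 3 was left out (0.0456) and lost when any of the other 6 mice was left out (0.0773 to 0.135). Keeping the libraries of the shared p53-only mouse apart gave an adjusted p of 0.0527.

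Vpreb1, Igll1 and Vpreb2 had larger but less certain differences in that comparison. Their log2 fold changes were -6.39 (SE 2.51, adjusted p = 0.218), -6.91 (SE 2.29, 0.152) and -6.23 (SE 2.15, 0.163), and none was called by edgeR. Vpreb1, Igll1 and Vpreb3 were lower in each MCL-like mouse than in each Ccnd2 non-MCL mouse, 3 of 4 members, where 9.06% of all genes tested were lower without overlap. The median log2 fold change of the 4 members was -6.31, against -0.04 over all genes. Single mice moved these values. Without MCL-like replicate 4 they were -11.29 for Vpreb1 (adjusted p = 0.152), -10.10 for Igll1 (0.169) and -11.44 for Vpreb2 (0.201). Vpreb2 also rested on Ccnd2 non-MCL replicate 1, and was at -2.84 (adjusted p = 0.547) without it and at -2.50 (0.471) in spleen tumours alone. DESeq2 called Vpreb1 (adjusted p = 0.0375) and Igll1 (0.0129). With spleen tumours alone, and with the fit limited to the 2 groups, Igll1 was called (0.0484 and 0.0338). Without the oTP samples both Igll1 (0.0182) and Vpreb2 (0.0480) were called. That setting leaves out Ccnd2 non-MCL replicate 3, the lowest of its group in Vpreb1, Igll1 and Vpreb2, at 2424, 394 and 2.21 CPM.

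**Figure D3:**
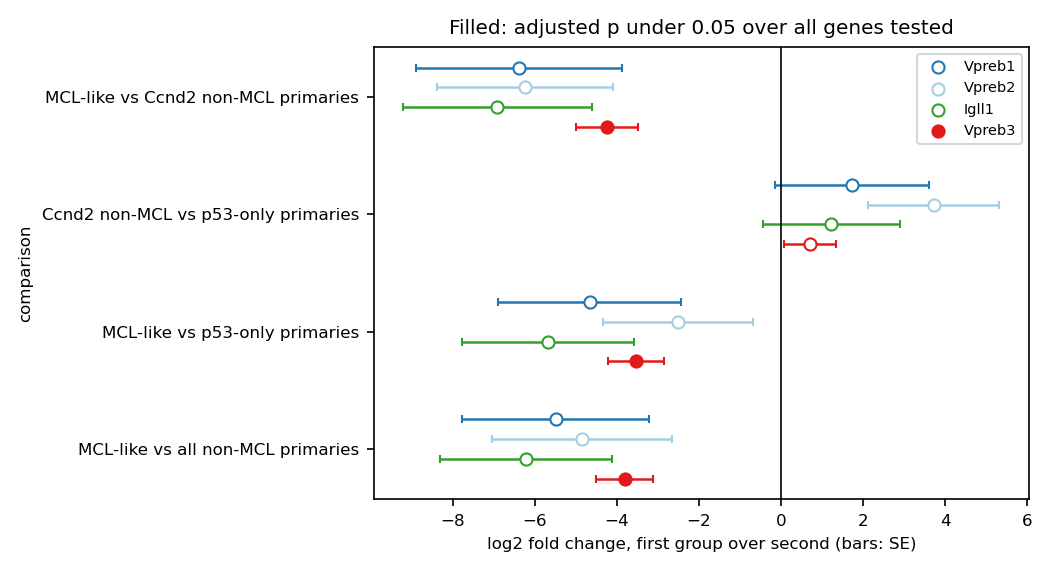
Log2 fold changes of the 4 genes with SE bars in the 4 comparisons of primary tumours; the first-named group is over the second, and filled points have an adjusted p under 0.05 over all genes tested. Vpreb3 is filled in the 3 comparisons with MCL-like tumours, with SE of 0.69 to 0.75, and the SE of the other 3 genes are 1.6 to 2.51.

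Ccnd2 non-MCL and p53-only primaries share the non-MCL label and differ by the transgene. No member was called: the log2 fold changes, Ccnd2 non-MCL over p53-only, were 1.73 for Vpreb1 (SE 1.88, adjusted p = 0.772), 1.23 for Igll1 (SE 1.67, 0.827), 3.72 for Vpreb2 (SE 1.60, 0.460) and 0.71 for Vpreb3 (SE 0.63, 0.709) with edgeR. Here 0% of genes, 0 of 12967, were called in edgeR, while 1330 had an unadjusted p under 0.05 and DESeq2 called 129. Without Ccnd2 non-MCL replicate 1, Vpreb2 was at 0.29 (adjusted p = 0.969). Without p53-only replicate 4, Vpreb1 was at 2.84 (0.654) and Igll1 at 2.23 (0.685). Among spleen tumours alone, where the p53-only libraries all had 2.02 to 4.82 CPM of Vpreb1, Igll1 was called with a value of 9.53 (adjusted p = 0.0326), and without the oTP samples at 10.16 (adjusted p = 0.0300). The other members were larger in these settings too but not called: Vpreb1 was at 10.09 (adjusted p = 0.0576) in the spleen and 10.55 (0.0731) without oTP samples, Vpreb3 at 2.51 (0.0633) and 2.79 (0.0577), and Vpreb2 at 8.01 (0.173) and 11.68 (0.0778). Without oTP samples, Ccnd2 non-MCL replicate 3 was left out as well as p53-only libraries. With the name prefix as a covariate, Vpreb1, Igll1, Vpreb2 and Vpreb3 were at 9.20, 8.44, 7.40 and 1.90, with adjusted p of 0.283 to 0.355.

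Setting MCL-like against p53-only primaries changes genotype and immunophenotype label together. Vpreb3 fell by 3.53 in log2 units (SE 0.69, edgeR adjusted p = 0.0135), at 63.1 ± 34 against 730 ± 586 TMM-scaled CPM. It was again the 1 member of 4 called lower, and the 1 member lower without overlap. Over all genes 5.81% were called, 2.86% were called lower and 5.74% were lower without overlap. The other members had log2 fold changes of -4.66 (Vpreb1, SE 2.22, adjusted p = 0.194), -5.68 (Igll1, SE 2.10, 0.109) and -2.51 (Vpreb2, SE 1.82, 0.388). Their direction rested on the p53-only libraries named oTP. Without all oTP samples, the values for Vpreb1, Igll1 and Vpreb2 were 3.86, 2.90 and 4.93, higher in MCL-like tumours, with adjusted p of 0.269, 0.284 and 0.399, and spleen tumours alone gave 4.20, 3.21 and 5.50. In these settings MCL-like primary 4, at 224 CPM of Vpreb1, was the only MCL-like tumour above the p53-only range of 2.02 to 4.82 CPM. Vpreb3 kept its sign and lost its call, at -1.58 (adjusted p = 0.127) without oTP samples and -2.06 (0.103) in the spleen alone, and without MCL-like replicate 4 its adjusted p was 0.0573. Without that replicate Vpreb1, Igll1 and Vpreb2 were at -9.52, -8.84 and -7.68 (adjusted p = 0.104, 0.113 and 0.277), and without p53-only replicate 7 Vpreb2 was at -1.41 (0.668).

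Against all 9 non-MCL primary mice together, a comparison that shares all its samples with those above, Vpreb3 fell by 3.81 (SE 0.69, edgeR adjusted p = 0.0108), and this call held in each of 13 fits that left out 1 mouse (0.00706 to 0.0427). It was lost with spleen tumours alone (-3.59, adjusted p = 0.132) and without the oTP samples (-3.33, 0.0802). Igll1 at -6.21 (SE 2.10, adjusted p = 0.0874), Vpreb1 at -5.48 (SE 2.28, 0.149) and Vpreb2 at -4.84 (SE 2.20, 0.183) were not called by edgeR, while DESeq2 called Igll1 (0.00136) and Vpreb1 (0.0115). Without MCL-like replicate 4 Igll1, Vpreb1 and Vpreb2 were at -9.39, -10.37 and -10.04 (adjusted p = 0.0921, 0.086 and 0.218), and without Ccnd2 non-MCL replicate 1 Vpreb2 was at -2.63. That leaves 1 of 4 members called lower and 1 lower without overlap, where 2.68% and 2.24% of all genes were and 5.52% were called in either direction. Erythroid markers, summed over 8 genes, took 23394 to 111150 CPM in MCL-like primaries, 3140 to 32402 CPM in Ccnd2 non-MCL primaries and 89.0 to 38637 CPM in p53-only primaries, and T cell markers took 229 to 355, 65.7 to 222 and 65.2 to 361 CPM. Their part in these differences was not tested.

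The chains that complete the receptor did not follow the surrogate light chains. Ighm, the mu heavy chain, ran from 2334 to 10638 CPM in MCL-like primaries, from 1484 to 4025 CPM in Ccnd2 non-MCL primaries and from 629 to 5976 CPM in p53-only libraries. Cd79b was at 663 ± 63.4, 711 ± 356 and 630 ± 286 CPM over the mice of these groups, in that order. Cd79a counts were low throughout, at 4.32 to 55.9 CPM over all libraries, a locus that also carries the Cre insertion. Igkc, the kappa constant region of the conventional light chain, was at 5921 CPM in MCL-like primary 4 and at 1873 to 12221 CPM in the other 3. Where surrogate light chains were high, Igkc varied: Ccnd2 non-MCL primaries had 1127 to 2223 CPM and p53-only replicate 7 had 5092 CPM, whereas replicates 4 and 6 had 38.5 and 150 CPM. Which cells of the tumours made it was not tested. Of the 7 genes of receptor partners and conventional light chains, 0 were called by edgeR in any primary comparison, where 0% to 5.81% of all genes were. In each, 2 or 3 had an unadjusted p under 0.05. Of the 7, 6 had positive log2 fold changes in MCL-like tumours against each set of non-MCL tumours.

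Several genes of the pro-B and pre-B stage were lower in MCL-like tumours, as the members were. Of 14 listed genes 13 could be tested (Mme did not pass the low-count filter), and 6 fell in MCL-like against all non-MCL primaries (2.68% of all genes fell), with 0 rising (2.84% of all genes rose) and a median log2 fold change of -3.74, against -0.13 over all genes. Rag1, a subunit of the V(D)J recombinase, fell by 10.12 (SE 1.91, edgeR adjusted p = 0.0127) and Rag2, its partner, by 5.59 (SE 1.49, 0.0431). Il7r, a chain of the interleukin 7 receptor that early B cells need, fell by 3.49 (SE 0.84, 0.0311), and Sox4, an early lymphocyte transcription factor, fell by 5.13 (SE 0.97, 0.0127). Cd93 and Bst1, surface proteins of early B cells, fell as well. Dntt, the template-free polymerase of pro-B cells, had -3.74 (0.151) and was not called. Against Ccnd2 non-MCL primaries 0 of the 13 were called with edgeR, where 0.308% of all genes were, and 11 had an unadjusted p under 0.05. Of the 13, 11 were negative and 8 were lower without overlap (9.06% of all genes were). Rag1 had an edgeR adjusted p of 0.0521. Low levels were not particular to MCL-like primaries. Summed over the 14 genes, p53-only replicates 1, 2 and 3 had 738, 588 and 480 CPM, against 362 to 824 CPM in MCL-like primaries. Replicate 5 had 1199 CPM, and replicates 4, 6 and 7 had 3482, 2520 and 2897 CPM. These genes were not tested in spleen tumours alone or without the oTP samples.

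**Figure D4:**
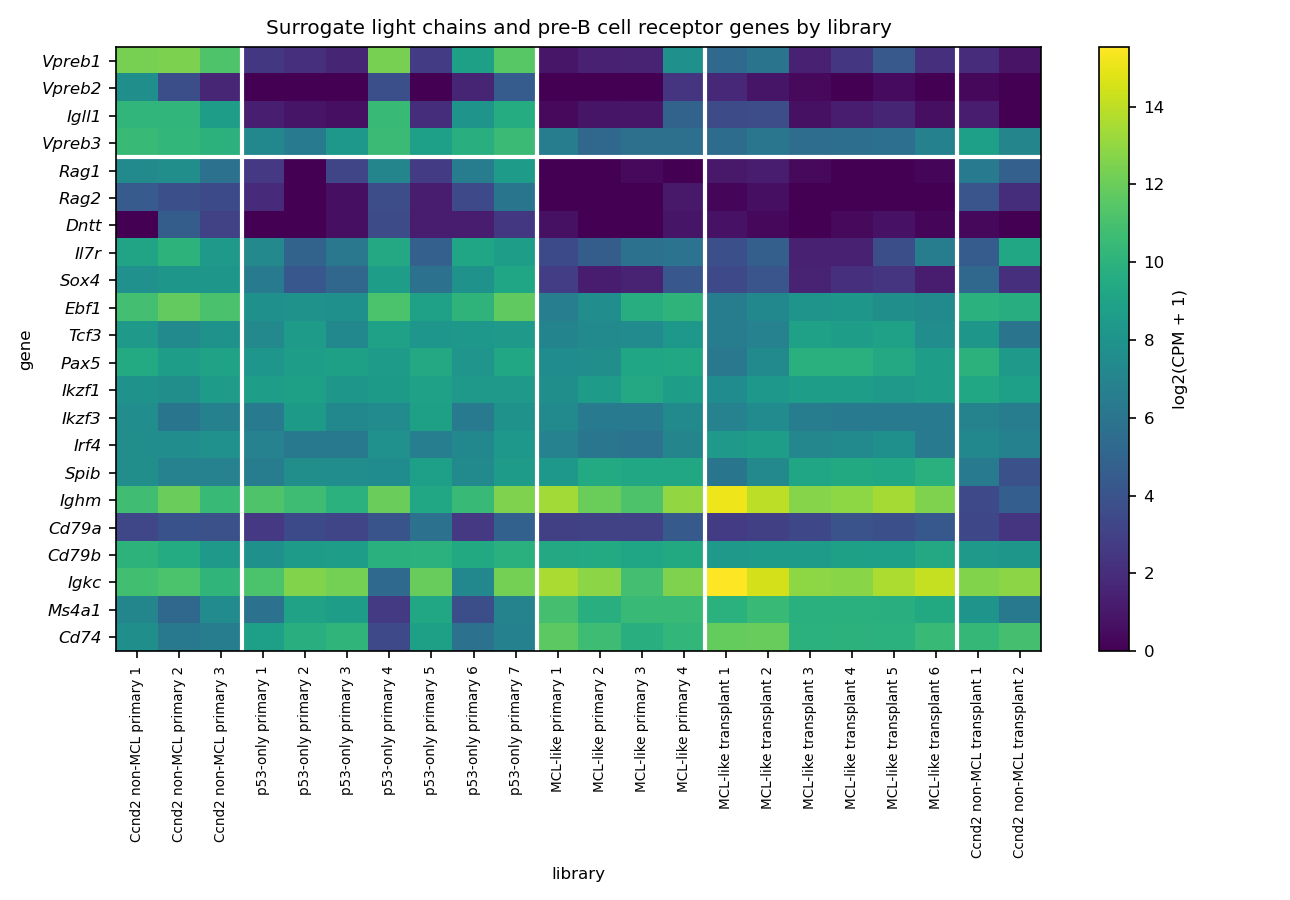
Log2(CPM + 1) of the 4 genes (above the white line) and of receptor, stage and transcription factor genes in 22 libraries, grouped by white vertical lines. Rag1, Il7r, Sox4 and Ebf1 are bright in the libraries where Vpreb1 and Igll1 are bright, Rag1 also in the Ccnd2 non-MCL transplants, and Ighm, Cd79b and Pax5 are not limited to them.

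MCL-like primary 4, the MCL-like tumour with 224 CPM of Vpreb1, was low in Rag1, Rag2 and Vpreb3. It had 0 counts of Rag1 and 1.07 CPM of Rag2, against 53.4 to 360 CPM and 9.98 to 64.8 CPM in the 6 libraries with over 400 CPM of Vpreb1. Its Vpreb3 level of 52.4 CPM was that of the other MCL-like tumours. Those 6 libraries also had more Vpreb1, at 458 to 5691 CPM. Summed over the 14 pro-B and pre-B stage genes, MCL-like primary 4 had 824 CPM, the highest of the MCL-like primaries (362 to 824 CPM). The 6 libraries had 1857 to 3482 CPM.

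Transcription factors that act on surrogate light chain genes in normal B cells were present in all groups. Ebf1, an activator of Vpreb1 and Igll1, had 538 ± 436 TMM-scaled CPM in MCL-like and 2458 ± 886 in Ccnd2 non-MCL primaries, a log2 fold change of -2.19 (SE 0.94, edgeR adjusted p = 0.257). The groups did not overlap, but the test was not passed, and 9.06% of all genes tested were lower without overlap in this comparison. Tcf3, which encodes the E proteins E12 and E47, had -0.28 (adjusted p = 0.764) and Pax5, the B lineage commitment factor, -0.37 (0.697) in that comparison. Ikzf1 and Ikzf3 encode Ikaros and Aiolos, which silence the surrogate light chain genes after the pre-B stage, and they had 0.71 (0.325) and 0.12 (0.934). Irf4, which acts at the exit from the pre-B stage, had -1.05 (0.238). Of 17 listed factors 2 rose in MCL-like against all non-MCL primaries and 0 fell, where 2.84% of all genes rose and 2.68% fell. The 2 were Spib, by 1.66 (SE 0.33, edgeR adjusted p = 0.0135), and Tcf4, by 2 (SE 0.40, 0.0140).

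Among 12 signalling genes of the receptor, the kinase Lyn rose in MCL-like against all non-MCL primaries, by 1.25 (SE 0.27, edgeR adjusted p = 0.0174), and 11 were not called, with Syk, the kinase recruited by the receptor, at 0.80 (0.0881). Of 12 genes of later B cell stages 2 rose, Ms4a1 (CD20) by 3.18 (SE 0.84, adjusted p = 0.0425) and S1pr1, a receptor for exit into the blood, by 2.56 (SE 0.42, 0.00754), and 0 fell. Over all genes 2.84% rose and 2.68% fell in this comparison. The median log2 fold changes were 0.49 over the signalling list and 1.05 over the later-stage list, against -0.13 over all genes.

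The genes whose levels followed each member most closely over the 13 primary mice were ranked by Pearson correlation of log2(CPM + 1) among 8549 genes with a mean of at least 10 CPM. For Vpreb1 the first were Pde5a (r = 0.97), a phosphodiesterase, Enpep (0.96), the BP-1 surface peptidase of pre-B cells, and Zfp820 (0.96). For Igll1 they were Zfp820 (0.98), Enpep (0.98) and Car3 (0.97), a carbonic anhydrase. Of 10 genes listed for each, Vpreb1 and Igll1 shared 5. Vpreb3 had a separate list, with 0 of 10 shared with Vpreb1, led by the kinase gene Dyrk2 (0.97), Rag1 (0.97) and Armc10 (0.95), and holding Sox4 (0.94) and Chchd10 (0.94). These correlations describe mice that fall into separate sets, and 4 of 10 genes in each list were also found over all 22 libraries. Enpep, for example, was at 108 to 382 CPM in the 6 mice with over 400 CPM of Vpreb1 and at 0 to 14.5 CPM in the other 7.

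In the NSG transplants of MCL-like tumours the chains were again low, and Vpreb1 and Igll1 differed from the primary in opposite directions in tumours of different mice. MCL-like primary 1 had 0.892 CPM of Vpreb1 (3 counts, exact interval 0.184 to 2.61 CPM), and its transplants 1 and 2 had 38.5 CPM (33 to 44.6) and 62.7 CPM (54.7 to 71.5). MCL-like primary 4 had 224 CPM (209 to 240), and its transplants 3 and 4 had 1.64 CPM (0.532 to 3.82) and 4.59 CPM (2.51 to 7.70). These intervals do not overlap within either mouse, so the shifts exceeded counting error, and both transplant libraries of a mouse lay on the same side. Primary 2 had 1.69 CPM and its transplant 6 had 3.41 CPM. Primary 1 was labelled a mesenteric lymphoma and its transplants spleen, whereas primaries 2 and 4 and their transplants were all labelled spleen. Site and mouse cannot be told apart in these shifts.

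Igll1 differed in the direction of Vpreb1 in both mice. It was at 0.297 CPM (1 count) in MCL-like primary 1 and at 11.2 and 11.9 CPM in its transplants. In MCL-like primary 4 it was at 30.4 CPM, and at 0.655 and 1.31 CPM in the transplants. Vpreb3 did not follow, with 95.5 CPM against 44.6 and 66.7 CPM in the first mouse and 52.4 against 45.6 and 47.9 CPM in the other, and it was higher after transplantation in the mouse of primary 2, at 112 against 35.2 CPM. Transplant 5, whose primary was not analysed here, had 19.4 CPM of Vpreb1, 2.06 CPM of Igll1 and 50.8 CPM of Vpreb3.

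**Figure D5:**
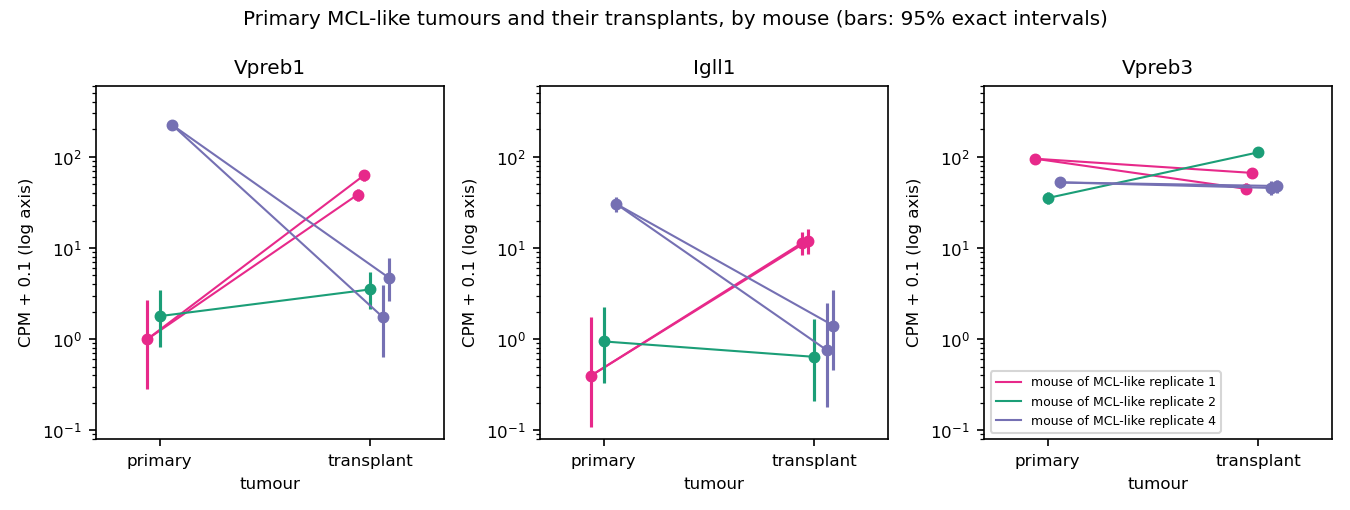
Vpreb1, Igll1 and Vpreb3 (CPM plus 0.1, log axis) in MCL-like primary tumours and in transplants of the same mice, with 95% exact binomial intervals; lines join a primary to its transplants. The lines of Vpreb1 and Igll1 go up from 0.892 and 0.297 CPM in the mouse of replicate 1 and down from 224 and 30.4 CPM in the mouse of replicate 4, and Vpreb3 stays between 35.2 and 112 CPM.

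Tested over the 3 mice with mouse as a block, Vpreb1 had a log2 fold change, transplant over primary, of 0.46 (SE 4.03, edgeR adjusted p = 0.982) and Vpreb3 of 0.32 (SE 0.53, 0.901). Igll1 and Vpreb2 did not pass the low-count filter. In that comparison 0% of 12020 genes were called, with 656 at an unadjusted p under 0.05 and 29 called by DESeq2. The sign for Vpreb1 followed single mice: it was -3.05 without the mouse of MCL-like replicate 1, -0.69 without that of replicate 2 and 3.27 without that of replicate 4. Leaving the mouse out of the model gave -1.64. T cell markers were at 60.3 to 114 CPM in the MCL-like transplants, against 229 to 355 CPM in the primaries. Erythroid markers were at 118933 and 10844 CPM in transplants 1 and 2 and at 276 to 1596 CPM in the other 4, and the thymic epithelium list at 35.8 and 25.7 CPM against at most 2.34 CPM. Plasma cell markers were at 2151 and 1143 CPM in transplants 1 and 2 and at 139 to 271 CPM in the other 4. The primary of the mouse of transplants 1 and 2 had 50388 CPM of erythroid, 14.3 CPM of thymic epithelium and 415 CPM of plasma cell markers, against 23394 to 111150, 0 to 2.11 and 86.7 to 156 CPM in the other 3 primaries. The part of these cells in the member values was not tested.

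The Ccnd2 non-MCL transplants, from 1 mouse and without a test, did not resemble the Ccnd2 non-MCL primaries in these genes. Vpreb1 was at 2.91 and 0.762 CPM (11 and 3 counts), Igll1 at 1.32 and 0 CPM, where 3 counts would have been 0.762 CPM, and Vpreb2 at 0.265 and 0 CPM. Vpreb3 was at 428 and 132 CPM, below the 1015 to 1405 CPM of the primaries and above the 44.6 to 112 CPM of MCL-like transplants. Rag1 was at 85.2 and 26.4 CPM in the same libraries. Ighm was at 9.79 and 23.6 CPM, below every other library, while Igkc was at 6232 and 7339 CPM. The primary tumour of that mouse was not analysed here.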

How the data were processed

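RNA from fresh lymphoma cells was made into 3′ end libraries with the QuantSeq reverse kit, per the labels' protocols. Per the submitters' processing notes, FastQC and STAR were run and the build was GRCm38. The counter, tool versions, strand setting and annotation behind the counts: not given in the sources used here. Raw counts per Ensembl gene were deposited by the authors and used unchanged. Of 52636 identifiers 52403 matched a symbol, with version suffixes ignored, and positions are those of GENCODE M21. No 2 libraries agreed within counting noise (lowest chi-square per degree of freedom 5.36 over 231 pairs).

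CPM are counts scaled to a common library total, and means ± SD are over mice, with libraries of a mouse summed. Exact binomial intervals cover counting error only. Tests used edgeR 4.0.16 (R 4.3.3) with its quasi-likelihood F test, TMM scaling, its default low-count filter and Benjamini-Hochberg adjustment over all genes, at a threshold of 0.05, and were tested on simulated data. They measure the spread between mice. The 13 primary mice shared 1 fit for the pairs of groups, and a fit of 2 groups served for 4 against 9 mice. Transplants were paired with primaries because the labels name the primary mouse; deviations from the group means correlated at 0.23, 0.24 and 0.36 within a mouse over 12020 genes. The SE was derived from each fold change and its F statistic. DESeq2 1.42.0, other scaling, filters and sample choices were alternatives.

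The genes and lists were chosen with earlier results of these data known. Besides the 4 members, the text names at most 5 genes of a list per comparison, those with the lowest adjusted p, and a fixed set of receptor, recombinase and transcription factor genes, together with the genes nearest to each member.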

Additional observations from a re-analysis of the deposited data

Results flagged for a closer look

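The mouse of MCL-like primary 4 stood far from the other 3 MCL-like primaries in 3 genes, with 224 CPM of Vpreb1, 4.03 CPM of Vpreb2 and 30.4 CPM of Igll1, where the others had at most 1.90, 0 and 0.95 CPM. Among the MCL-like transplants the mouse of replicate 1 stood apart in Igll1, at 11.5 CPM over its 2 libraries, and the mouse of replicate 2 in Vpreb3, at 112 CPM. These 5 values came from 12 checks, each of 1 gene in 1 group of mice, by the gap to the next value as a share of the range. The limit used assumes normally spread values. Many of these values rest on few or 0 counts, so no rate of chance flags can be given. The genes are not independent, since 3 of the 5 values belong to 1 mouse.

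The shift from primary to transplant went up in both transplants of the mouse of MCL-like replicate 1 and down in both transplants of the mouse of replicate 4. On the log2(CPM + 1) scale the mean shifts of these mice differed by 10.6 for Vpreb1 and by 7.28 for Igll1. Each side is 1 mouse with 2 transplant libraries, and the difference was not tested. The primary of replicate 1 was a mesenteric lymphoma, while its transplants and all tumours of the mouse of replicate 4 were spleen.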

How the results depend on the processing

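Of the members' fold changes under the alternatives, 279 kept direction and side of the threshold, 13 lost a call, 11 gained one and 14 reversed; the cause was not tested except where noted. In MCL-like against Ccnd2 non-MCL primaries, Vpreb3 lay between -4.68 and -4.06 with 1 mouse left out, and at -4.24 (not called) with the libraries of a mouse kept apart. Igll1 gained a call with DESeq2 (-6.94), spleen tumours (-6.31), without oTP samples (-7.26) and with 2 groups alone (-6.89), Vpreb1 with DESeq2 (-6.40) and Vpreb2 without oTP samples (-6.75). The genes called, 40 at first, were 22 with DESeq2's size factors, 895 with DESeq2, 13 with libraries apart, 116 in the spleen, 552 without oTP samples, 19 with the name prefix as a covariate, 371 with 2 groups alone, and 0 to 42 with 1 mouse left out (0 without MCL-like replicate 3). In Ccnd2 non-MCL against p53-only primaries, 0 genes became 129 with DESeq2, 2 without a filter, 41 in the spleen, 116 without oTP samples, 1 with the prefix covariate and 0 to 8 with 1 mouse left out, and Igll1 was called in the spleen (9.53) and without oTP samples (10.16).

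In MCL-like against p53-only primaries, Vpreb1, Vpreb2 and Igll1 reversed in the spleen (4.20, 5.50 and 3.21), without oTP samples (3.86, 4.93 and 2.90) and with the prefix covariate (3.10, 1.23 and 1.78). Vpreb3 lost its call in these settings (-2.06, -1.58 and -1.99) and lay between -3.92 and -3.16 with 1 mouse left out. Igll1 was called by DESeq2 (-5.65). The 753 genes became 1878 with DESeq2, 35, 116 and 288 in the same 3 settings, and 188 to 1117 with 1 mouse left out. Against all non-MCL primaries the 716 genes became 1813 with DESeq2, 37 in the spleen, 248 without oTP samples, 213 with the covariate and 176 to 1091 with 1 mouse left out. There DESeq2 called Vpreb1 (-5.47) and Igll1 (-6.22), and Vpreb3 was not called in the spleen (-3.59) or without oTP samples (-3.33).

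For transplants against primaries, the fit with no replicate block reversed Vpreb1 (-1.64) and gave 0 called genes, as the pairing did. With the block, Vpreb1 was -1.78 with transplant libraries apart and -3.05 to 3.27 with 1 mouse left out (-0.69 without the mouse of replicate 2), and Vpreb3 -0.35 to 0.92. The genes called were 29 with DESeq2, 35 without a filter and 0 to 14 with 1 mouse left out. Pseudocounts of 0.1 and 10 CPM and TMM scaling of levels moved no member value beyond the spread. Scaling by library totals moved the median of all genes from -0.04 to -0.16 in MCL-like against Ccnd2 non-MCL primaries and from 0.01 to -0.10 in transplants. The genes called higher and lower, 8 and 32 with TMM in the first of these, were then 2 and 31. Against p53-only primaries 382 and 371 became 404 and 259 with DESeq2's size factors and 340 and 476 with totals, and against all non-MCL primaries 368 and 348 became 307 and 432 with totals. Counting Vpreb1 and Vpreb2 as 1 gene, chosen after seeing the data, gave -6.39, 1.75, -4.64 and -5.48 in the 4 primary comparisons. Depth limits Vpreb2 and, in MCL-like tumours, Igll1, which rest on few counts.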
